A study of Arabidopsis thaliana with 21 samples.

Results

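The protophloem sieve element is the first sugar-conducting cell that matures in a plant root. In Arabidopsis thaliana a file of these cells can be followed from dividing precursors near the root tip, through a phase of wall and plastid remodelling, to cells that break down their nucleus and keep a thinned cytoplasm for transport. APL, a MYB-type regulator, acts upstream of the transcription factors NAC045 and NAC086, which in turn switch on the NEN exonuclease-domain genes needed for the loss of the nucleus. DOF transcription factors such as PEAR1, and the genes of polarity and peptide signalling such as BRX, CVP2, OPS and BAM3, act in younger cells of the same file.

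RNA of sorted root protoplasts from the line labelled NAC57 (3 libraries) was compared with that from the line labelled NAC73 (4 libraries), 7 of the 21 libraries of the series. The libraries were chosen by their line label alone, and the comparison covered 33323 nuclear genes. The NAC57 line carried pNAC57::2GFP together with pCALS7::H2B-RFP, that is, GFP driven by the NAC057 promoter and a nuclear red reporter driven by the promoter of the callose synthase gene CALS7. The NAC73 line carried pNAC73::H2B-YFP together with pS32::erRFP, a nuclear yellow reporter under the NAC073 promoter and a red reporter of the endoplasmic reticulum under the S32 promoter. The CALS7 line (4 libraries), labelled pCASL7::H2B-YFP with pS32::erRFP, is used for levels set beside these. All were roots of seedlings grown for 5 days, cut, treated with wall-degrading enzymes and sorted for fluorescence. The labels do not give the colour of the gate and name each reporter as 1 line. They do not say whether libraries came from separate plantings. The p-values therefore measure spread between libraries of a line, which may be technical and which the fit shared over all 21 libraries of the series. Promoter, line, gate and handling cannot be told apart, and in sorted bulk cells fewer cells of a type and less RNA per cell cannot be told apart either.

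Levels are in CPM, the count of a gene as a share of its library, after scaling by edgeR's trimmed-mean factors. These factors were 1.105 to 1.11 in the NAC57 libraries and 0.503 to 0.786 in the NAC73 libraries. Scaled levels therefore lie above the plain library share in NAC73 and below it in NAC57, and small differences depend on the scaling. Libraries are given in the order 1, 2 and 4 for NAC57 and 1 to 4 for NAC73. Totals were 26117515 to 32519005 counts in the NAC57 libraries and 23513921 to 32260798 in the NAC73 libraries. Nuclear genes with a count numbered 20281 to 21969 in NAC57 and 16822 to 19536 in NAC73. The 100 most abundant nuclear genes took 13.3 to 13.8% of nuclear counts in NAC57 and 22.9 to 33.2% in NAC73. The first principal component of the 7 libraries (62.8% of the variance) put the NAC57 libraries at 174.68 to 198.99, NAC73 1 and 4 at -28.03 and -19.95, and NAC73 2 and 3 at -250.83 and -267.48. NAC73 2 and 3 therefore stood apart from NAC73 1 and 4, and results that turn on them are given with and without them.

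The gene that names the NAC57 line went against its label. NAC057 (AT3G17730, chr3:6064272-6066180 in TAIR10.1) had 31.9, 17.5 and 13.7 CPM in the line labelled NAC57 and 479.8, 947, 813 and 477 CPM in the NAC73 line. No library of either line overlapped the other, and the log2 difference, NAC57 minus NAC73, was -5.01 ± 0.42 (SE; edgeR quasi-likelihood test, adjusted p = 2.94e-08). The NAC73 label was met: NAC073 (AT4G28500, chr4:14082660-14084553) had 2.39, 2.49 and 1.36 CPM in the line labelled NAC57 and 336, 645, 634 and 398 CPM in the NAC73 line, a log2 difference of -7.92 ± 0.95. CALS7 (AT1G06490, chr1:1978378-1989409), whose promoter drives the red reporter of the line labelled NAC57, had 281, 120.2 and 121 CPM there and 1733, 6102, 2936 and 6044 CPM in the NAC73 line. S32 (AT2G18380), the GATA factor gene behind the red reporter of the NAC73 line, had 800.5, 761 and 804 CPM in the line labelled NAC57 and 1081, 2115, 1682 and 1031 CPM in the NAC73 line. Its fall, -0.91 ± 0.21 on the log2 scale, was not called without NAC73 2 and 3 (-0.42, edgeR adjusted p = 0.0552). Directions below are those of the line labelled NAC57.

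APL, a marker of protophloem, was present in every library of both lines. It had 1126, 993 and 1021 CPM in NAC57 libraries and 1741, 3406, 3444 and 1996 CPM in NAC73 libraries. Summed over the 11 endodermis markers the levels were 13.1 to 18.1 CPM in NAC57 and 8.42 to 45.4 CPM in NAC73, and over the 13 markers of epidermis and root hair at most 34.2 CPM in NAC57 and 15.3 CPM in NAC73. Some other lists had higher sums. Root cap markers summed to at most 27.1 CPM in NAC57 and 551 CPM in NAC73. Procambium genes summed to at most 421.1 CPM in NAC57 and 718.7 CPM in NAC73. Pericycle markers reached 150 CPM in NAC57 and were lower in every NAC73 library. Companion cell markers summed to at most 579.1 CPM in NAC57 and 2207 CPM in NAC73. The gene AHA3 alone had 2202 CPM of that last sum, in NAC73 2. Of the 12 companion cell markers, 4 were higher and 2 lower in NAC57.

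Across the genome the lines differed in many genes: 5547 nuclear genes were higher in the NAC57 line (21.4% of 25924 tested) and 4146 were lower (16.0%), 37.4% in all at an edgeR adjusted p below 0.05. The median log2 difference over all nuclear genes tested was 0.30, with quartiles of -0.62 and 1.57, and the changes were uneven in size. Of the genes that were lower, 1075 were over 16-fold lower, against 881 over 16-fold higher among those that were higher. A share of the calls, 562 of the higher and 282 of the lower, had no count in the other line. Of the calls, 57.2% were higher under the trimmed-mean scaling and 47.2% under median-of-ratios scaling, which shifted the same genes by -0.23 on the log2 scale. No gene called here was called in the opposite direction under any alternative tried.

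**Figure D1:**
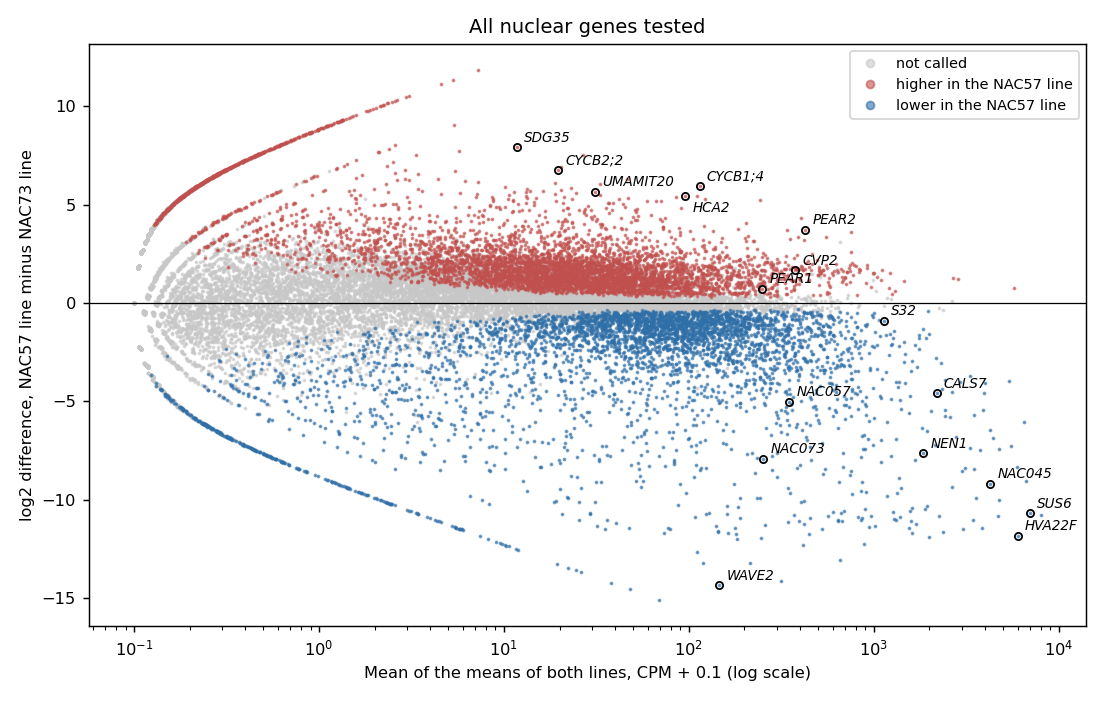
Each point is 1 nuclear gene tested, with the mean of the 2 lines' mean levels on the x axis (CPM + 0.1, log scale) and the log2 difference, NAC57 line minus NAC73 line, on the y axis. Red points are the 5547 genes higher and blue points the 4146 genes lower in the NAC57 line, grey points were not called and named circles mark genes described in the text. The points spread further below 0 than above it, with 1075 genes over 16-fold lower and 881 over 16-fold higher, and the arcs at low levels are genes with few or no counts in 1 line, whose fitted difference is not a bound.

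Genes of the maturing sieve element were low in the line labelled NAC57 and high in the NAC73 line. Of 20 such genes tested, 16 were lower and 3 higher in the NAC57 line, beside 16.0% lower and 21.4% higher among all nuclear genes tested, with a median log2 difference of -5.65. The lines did not overlap for any of the 16, beside 14.6% of all nuclear genes with no overlap and NAC57 lower. Their summed level was 2862 to 3421 CPM in NAC57 libraries and 36391 to 82902 CPM in NAC73 libraries. The 4 reporter genes NAC057, NAC073, CALS7 and S32 are among the 16. Without NAC73 2 and 3, 15 were lower. This list and those below were chosen with earlier results of these data known, so their counts describe the lists and are not independent support.

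Among the regulators, APL was lower by a modest amount. Its log2 difference was -1.34 ± 0.23 (edgeR adjusted p = 0.000161), with all NAC57 libraries under all NAC73 libraries. NAC045 and NAC086, which act downstream of it, were far lower. NAC045 (AT3G03200) had 24.1, 10.2 and 9.01 CPM in NAC57 libraries and 5444, 11868, 9624 and 7045 CPM in NAC73 libraries, a log2 difference of -9.20 ± 1.67. NAC086 (AT5G17260) had 105, 90.7 and 76.3 CPM in NAC57 and 3210, 6728, 5623 and 4640 CPM in NAC73, a log2 difference of -5.80 ± 0.48 (edgeR adjusted p = 2.91e-08). Other NAC factors of the sieve element moved apart from these. NAC028 (AT1G65910) fell by a small amount (-0.89 ± 0.15), with 297, 258 and 267 CPM in NAC57 and 400.0, 526, 555 and 544 CPM in NAC73. A fall of this size depends on the scaling, as do those of S32 above and CRWN1 below. NAC020 (AT1G54330) rose, with 392, 320.1 and 310.5 CPM in NAC57 and 119.5, 216, 191 and 143 CPM in NAC73 (1.03 ± 0.17, edgeR adjusted p = 0.000108). SAPL, the closest relative of APL, was under 1.2 CPM in every library of both lines and was not called.

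The NEN genes, which encode the exonuclease-domain proteins downstream of NAC045 and NAC086, differed by member. NEN4 (AT4G39810, chr4:18474481-18475804), known for its part in nuclear breakdown, had 2.88, 0.318 and 0.139 CPM in NAC57 and 1433, 4351, 4711 and 1928 CPM in NAC73, a log2 difference of -11.47 ± 1.68 (edgeR adjusted p = 2.86e-05). NEN1 had 21.5, 16.8 and 16.7 CPM in NAC57 and 2225, 4979, 4429 and 3136 CPM in NAC73 (-7.65 ± 0.56). NEN2 had 104, 85.7 and 73.6 CPM in NAC57 and 2317, 5325, 4642 and 3595 CPM in NAC73 (-5.50 ± 0.38). Every NAC57 library lay below every NAC73 library for these 3 genes. NEN3 went the other way, with 8.35, 5.24 and 4.12 CPM in NAC57 and 0.308, 0.947, 2.65 and 1.67 CPM in NAC73 (2.08 ± 0.48, edgeR adjusted p = 0.002).

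Genes for the transport machinery of the mature tube fell as well. SUS6 (AT1G73370, chr1:27584364-27588978) and SUS5 encode the sucrose synthases known from phloem. SUS6 had 16.6, 2.83 and 5.73 CPM in NAC57 and 7222, 15002, 18095 and 15533 CPM in NAC73, a log2 difference of -10.70 ± 1.33. SUS5 had 7, 1.04 and 0.445 CPM in NAC57 and 4127, 9841, 7996 and 8801 CPM in NAC73 (-11.42 ± 1.69). SEOR1 and SEOR2 encode the proteins that form filaments in sieve tubes, and lie 1395 bases apart on chromosome 3. SEOR1 had 28.3, 26.4 and 14.7 CPM in NAC57 and 1013, 1963, 1750 and 785 CPM in NAC73 (-5.90 ± 1.14). SEOR2 had 5.41, 13.9 and 4.95 CPM in NAC57 and 1346, 2565, 2291 and 2537 CPM in NAC73 (-8.08 ± 1.28). RTM2, a small heat-shock-like protein of sieve elements that restricts long-distance movement of a plant virus, had 5.72, 1.5 and 0.195 CPM in NAC57 and 2120, 6308, 6336 and 3310 CPM in NAC73 (-10.85 ± 1.56). RTM1, its partner in that resistance, had no count in either line and was not tested. CHER1, a choline transporter-like protein needed for sieve plate and pore formation, rose, with 161, 136 and 170.5 CPM in NAC57 and 42.3, 13.2, 8.51 and 34.1 CPM in NAC73 (2.67 ± 0.36, edgeR adjusted p = 1.02e-05).

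**Figure D2:**
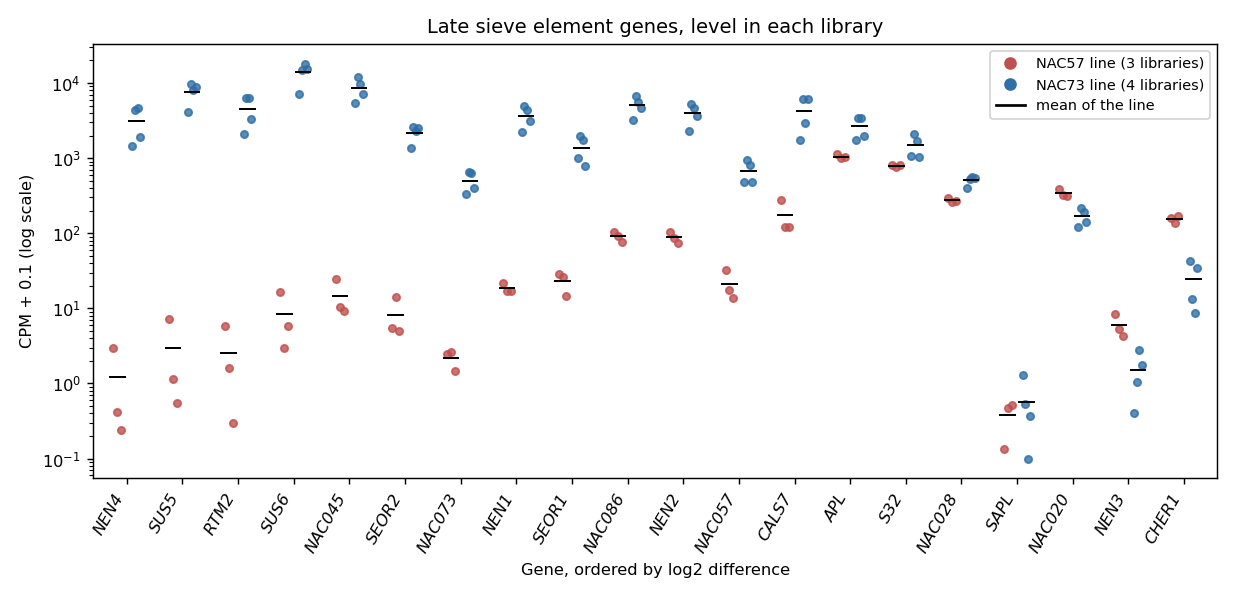
Level of each late sieve element gene tested (y axis, CPM + 0.1, log scale), ordered by its log2 difference, with 1 point per library, red for the NAC57 line and blue for the NAC73 line, and a black bar at the mean of each line. The 16 genes lower in the NAC57 line show no overlap between the lines, and NAC020, NEN3 and CHER1 lie the other way round.

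The CALS7 line, set beside these, held intermediate mean levels of the genes named next. NEN4 had 1.11 ± 1.53 CPM in NAC57, 3106 ± 1664 CPM in NAC73 and 488 ± 125 CPM in CALS7 (mean ± SD, n = 3, 4 and 4). NAC045 averaged 14.4 ± 8.4 CPM in NAC57, 8495 ± 2832 CPM in NAC73 and 1783 ± 382 CPM in CALS7. SUS6 averaged 8.4 ± 7.28 CPM in NAC57, 13963 ± 4693 CPM in NAC73 and 3852 ± 1013 CPM in CALS7. For CALS7 the gene, the mean in the CALS7 line, 3886 ± 566 CPM, stood beside 174 ± 92.9 CPM in NAC57 and 4204 ± 2214 CPM in NAC73. Its difference between the NAC73 and CALS7 lines was not called (edgeR adjusted p = 0.861).

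The genes of younger protophloem cells ran the other way. Of 21 early protophloem genes tested, 14 were higher and 1 lower in the NAC57 line, beside 21.4% higher and 16.0% lower among all nuclear genes tested, and the median log2 difference was 1.68. Their summed level was 5407 to 6517 CPM in NAC57 and 2363 to 3722 CPM in NAC73, so the difference was far smaller than for the late genes.

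All 5 DOF genes of the list rose, though PEAR1 was not called under median-of-ratios scaling. PEAR2 (AT5G02460) had 822, 715 and 839 CPM in NAC57 and 88.3, 29.5, 39.3 and 81.7 CPM in NAC73, a log2 difference of 3.73 ± 0.31 (edgeR adjusted p = 2.56e-08). PEAR1, a near relative, had 323, 278 and 329 CPM in NAC57 and 159, 225, 212 and 155 CPM in NAC73 (0.72 ± 0.16), a much smaller step, and under that other scaling it was 0.42 (edgeR adjusted p = 0.0916). HCA2 (AT5G62940, DOF5.6), known from vascular cell division, had 212, 194 and 154 CPM in NAC57 and 0.103, 1.31, 1.11 and 14.7 CPM in NAC73 (5.45 ± 0.90). TMO6 and DOF6, of the same family, rose by 1.55 ± 0.17 and 1.53 ± 0.17 on the log2 scale.

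Polarity and phosphoinositide genes, which set the progress of sieve element differentiation, were split. PAX, an AGC kinase that acts with BRX on auxin efflux, had 495, 408 and 454 CPM in NAC57 and 78.6, 119.7, 111 and 116 CPM in NAC73 (2.09 ± 0.18, edgeR adjusted p = 3.88e-08). BRX itself fell, with 213, 182 and 178 CPM in NAC57 and 952, 1435, 1620 and 1360 CPM in NAC73 (-2.81 ± 0.24, edgeR adjusted p = 3.72e-08), and it was the 1 early gene that did so. CVP2 and CVL1, which encode phosphatases of the same phosphoinositide, both rose. CVP2 had 644, 538 and 534 CPM in NAC57 and 136, 197, 185 and 194 CPM in NAC73 (1.68 ± 0.22). CVL1 had 301, 241 and 256 CPM in NAC57 and 59.7, 129.5, 89 and 115 CPM in NAC73 (1.44 ± 0.23). OPS, a polar membrane protein that promotes sieve element identity, had 40.2, 30.0 and 39.8 CPM in NAC57 and 1.64, 2.91, 2.77 and 13.8 CPM in NAC73 (2.79 ± 0.50). OPL2, its relative, had 3.43, 5.44 and 7.43 CPM in NAC57 and 1.59, 0, 0 and 2.21 CPM in NAC73 and was not called.

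Signalling of the peptide CLE45 through its receptor holds back sieve element formation. BAM3, the receptor kinase of CLE45, had 968, 836 and 953 CPM in NAC57 and 254, 559, 529.7 and 396 CPM in NAC73 (1.08 ± 0.20, edgeR adjusted p = 0.000326). CRN, a receptor-like protein that assists BAM3, had 55.7, 42.5 and 52.6 CPM in NAC57 and 8.21, 2.19, 0 and 13.5 CPM in NAC73 (3.07 ± 0.77). The peptide genes differed from each other. CLE25 had 278, 203 and 279 CPM in NAC57 and 56.9, 93.3, 89.1 and 46.5 CPM in NAC73 (1.82 ± 0.26). CLE45 had 236, 186 and 189.9 CPM in NAC57 and 90.9, 247, 278 and 80.2 CPM in NAC73 and was not called (0.23 ± 0.31, edgeR adjusted p = 0.609). Its levels in NAC73 2 and 3 lay above, and those in NAC73 1 and 4 below, all NAC57 libraries. Without NAC73 2 and 3 the log2 difference of CLE45 was 1.25 (adjusted p = 9.94e-06), and without NAC73 1 and 4 it was -0.36 (adjusted p = 0.0478). MAKR5, which amplifies the CLE45 signal, had 27.1, 24.9 and 37.3 CPM in NAC57 and 10.0, 0, 0 and 10.2 CPM in NAC73 and narrowly missed the threshold (2.55 ± 1.00, edgeR adjusted p = 0.0545). RPK2 and CLERK, 2 further receptor kinases, were not called.

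The SMXL genes, which act together in phloem formation, also divided. SMXL4 had 422, 334 and 448 CPM in NAC57 and 41.1, 43.5, 19.7 and 76.2 CPM in NAC73 (3.15 ± 0.35). SMXL5 had 106, 55.4 and 77.7 CPM in NAC57 and 2.36, 2.99, 2.53 and 14.5 CPM in NAC73 (3.84 ± 0.48). SMXL3 had 98.8, 89.7 and 122 CPM in NAC57 and 106, 152, 104 and 172 CPM in NAC73, overlapping ranges with no call (-0.37 ± 0.19, edgeR adjusted p = 0.133).

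**Figure D3:**
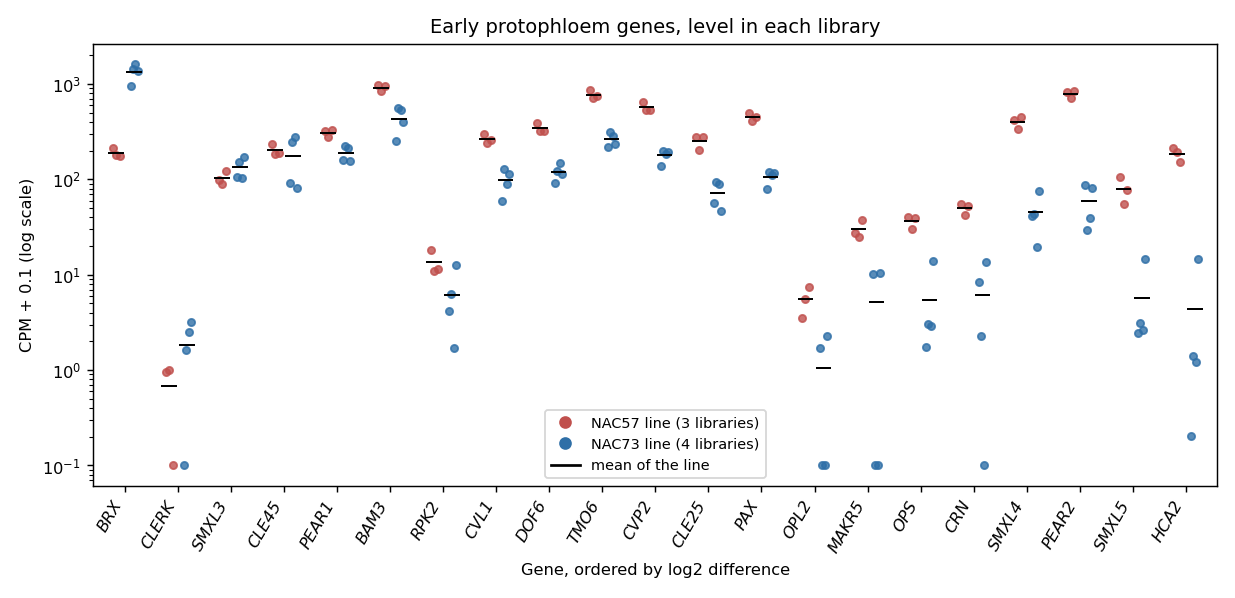
Level of each early protophloem gene (y axis, CPM + 0.1, log scale), ordered by its log2 difference, with 1 point per library, red for the NAC57 line and blue for the NAC73 line, and a black bar at the mean of each line. BRX is at the far left, lower in all 3 NAC57 libraries, and HCA2 at the far right, at 153.6 to 212.2 CPM in NAC57 and at most 14.7 CPM in NAC73.

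Genes of mitosis were higher in the NAC57 line almost throughout. In the list for G2 and M phase, 28 of 29 rose and 1 fell, against 21.4% and 16.0% of all nuclear genes tested, with a median log2 difference of 3.77, and their summed level was 1711 to 2000 CPM in NAC57 and 197.8 to 370.3 CPM in NAC73. Without NAC73 2 and 3 the count was 27 higher and 0 lower, and with only the 7 libraries of these 2 lines in the fit it was 16 higher and 0 lower. Many plant genes of this phase are switched on by MYB3R factors, which bind a short element with the core AACGG. That core, on either strand, occurs in the 300 bases before the annotated start of 20 of the 29 genes (69.0%), against 24.0% of 23234 protein-coding genes tested. In the promoters of the 20 late sieve element genes tested the share was 15%. Over the other lists searched it ran from 13.6% for autophagy to 45.8% for ribosome biogenesis, with 35.3% for the ribosomal protein list. A match is only a match of letters, not a binding site, and no motif searched here contains another. Some windows also overlap annotated exons, as that of POK2 does over 240 bases.

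Promoters of 3 of these genes are shown because they hold the core more than once and have no annotated exon in the window. They were chosen after the values were seen. Sequences are RefSeq TAIR10.1, read 5′ to 3′ on the strand of the gene, with the core AACGG or its reverse complement CCGTT in capitals: chr5:1861704-1862003 on the minus strand for CYCB1;2, chr4:16901296-16901595 on the plus strand for CYCB2;2 and chr5:20964538-20964837 on the minus strand for PLE.
CYCB1;2: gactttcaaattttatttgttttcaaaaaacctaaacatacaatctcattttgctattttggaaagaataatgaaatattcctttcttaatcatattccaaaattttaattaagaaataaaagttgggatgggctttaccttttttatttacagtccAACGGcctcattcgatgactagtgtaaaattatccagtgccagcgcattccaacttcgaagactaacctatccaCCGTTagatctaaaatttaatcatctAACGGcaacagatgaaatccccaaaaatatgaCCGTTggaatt
CYCB2;2: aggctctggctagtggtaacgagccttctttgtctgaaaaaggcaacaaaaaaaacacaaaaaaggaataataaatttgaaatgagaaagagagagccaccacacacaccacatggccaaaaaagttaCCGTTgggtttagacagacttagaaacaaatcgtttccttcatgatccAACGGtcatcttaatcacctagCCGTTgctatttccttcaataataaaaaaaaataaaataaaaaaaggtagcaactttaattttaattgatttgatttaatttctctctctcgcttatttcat
PLE: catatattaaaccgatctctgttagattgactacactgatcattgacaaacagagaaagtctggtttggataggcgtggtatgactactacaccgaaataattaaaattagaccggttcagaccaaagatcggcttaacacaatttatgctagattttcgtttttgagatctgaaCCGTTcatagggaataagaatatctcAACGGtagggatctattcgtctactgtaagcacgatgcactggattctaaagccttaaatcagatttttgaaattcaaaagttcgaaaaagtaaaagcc

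CYCB1;2, a B-type cyclin that drives entry into mitosis, holds 4 copies of the core. It had 219.7, 236 and 194 CPM in NAC57 and 1.64, 0.51, 0.123 and 17.9 CPM in NAC73, a log2 difference of 5.43 ± 1.24 (edgeR adjusted p = 0.00198). CYCB2;2, with 3 copies, had 40.3, 44.9 and 30.8 CPM in NAC57 and 0, 0, 0.123 and 1.34 CPM in NAC73 (6.75 ± 0.92). PLE, a microtubule-bundling protein of the phragmoplast, with 2 copies, had 88.3, 88.1 and 80.7 CPM in NAC57 and 10.6, 8.67, 6.72 and 15.7 CPM in NAC73 (3.04 ± 0.31, edgeR adjusted p = 3.48e-07). CYCB1;4, with no copy in its window, had 264, 225 and 187 CPM in NAC57 and 0.0513, 0.0728, 0.247 and 14.4 CPM in NAC73 (5.94 ± 1.26).

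Kinases and checkpoint genes of mitosis followed. AUR1, an Aurora kinase of the spindle, had 74.1, 60.8 and 66.7 CPM in NAC57 and 10.7, 8.52, 10.8 and 15.7 CPM in NAC73 (2.55 ± 0.25, edgeR adjusted p = 2.25e-07). BUBR1, of the spindle checkpoint, had 71.5, 62.6 and 52.7 CPM in NAC57 and 1.59, 2.84, 3.08 and 7.76 CPM in NAC73 (4.03 ± 0.43). CDC20.1 and CDC20.2, activators of the anaphase-promoting complex, lie 619 bases apart and are near-identical, so reads could be split between them. CDC20.1 had 108, 107 and 86.9 CPM in NAC57 and 2.62, 4.22, 2.71 and 5.15 CPM in NAC73 (4.78 ± 0.50). CDC20.2 had 24.6, 33.8 and 23 CPM in NAC57 and 1.03, 0, 0 and 1 CPM in NAC73 (5.69 ± 0.83). KN, the syntaxin of the forming cell plate, had 80.4, 78.9 and 66.3 CPM in NAC57 and 2.67, 0.0728, 0.493 and 5.55 CPM in NAC73 (5.09 ± 0.90). POK1, a kinesin that guides the cell plate to its site, was the exception, with 45.3, 18.7 and 24.2 CPM in NAC57 and 33.9, 108, 111 and 72 CPM in NAC73 (-1.47 ± 0.35). The call of POK1 was lost without NAC73 2 and 3 (-0.85, edgeR adjusted p = 0.0636).

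Genes of DNA replication had higher mean levels in NAC57, though most were not called. Of 22 tested, 4 rose and 0 fell, with a median log2 difference of 1.50, 18 missed the threshold and 7 had an unadjusted p below 0.05. The count of 4 is no larger a share than the 21.4% of all nuclear genes that were higher. In 16 of the 22, though, every NAC57 library lay above every NAC73 library, beside 24.8% of all nuclear genes tested. Their summed level was 1054 to 1416 CPM in NAC57, against 801.6 and 729.2 CPM in NAC73 1 and 4 and 80.4 and 92.3 CPM in NAC73 2 and 3. Without NAC73 2 and 3, 3 genes rose and the median was 0.59, and without NAC73 1 and 4, 21 rose and it was 5.65. Leaving out NAC73 1 alone gave 9, and limma voom with sample weights gave 20. Those weights were 0.23 and 0.361 for NAC73 1 and 4, against 1.25 and 0.788 for NAC73 2 and 3. The limma voom fit therefore leaned on NAC73 2 and 3 and is no separate support for the fit without NAC73 1 and 4. CDT1A, which licenses origins of replication, had 56.7, 49.1 and 64.6 CPM in NAC57 and 24.2, 11.5, 8.32 and 25.8 CPM in NAC73 (1.70 ± 0.30, edgeR adjusted p = 0.000169). MCM5, a subunit of the replicative helicase, had 128, 110.0 and 163 CPM in NAC57 and 69.1, 14, 15.4 and 73.2 CPM in NAC73 (1.64 ± 0.47). MCM3, of the same helicase, had 98.7, 81.4 and 91.1 CPM in NAC57 and 54.1, 0, 0 and 48.5 CPM in NAC73 and was not called (edgeR adjusted p = 0.24).

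Of 22 histone genes, 12 rose and 1 fell, against 21.4% and 16.0% of all nuclear genes tested, with a median of 0.94. With only the 7 libraries in the fit, 6 rose and 2 fell, and under median-of-ratios scaling 11 rose and 3 fell. HTR2, a gene for the H3 made during replication, had 258, 258 and 316 CPM in NAC57 and 82.8, 4.22, 6.53 and 60.8 CPM in NAC73 (2.84 ± 0.66). HTR5, for the H3 that replaces it outside replication, had 1142, 961 and 1116 CPM in NAC57 and 861, 1368, 1588 and 944 CPM in NAC73 and was not called (-0.15 ± 0.19). HTA1, an H2A gene, fell, with 106, 85.3 and 94.8 CPM in NAC57 and 190.4, 325, 348 and 152 CPM in NAC73 (-1.41 ± 0.25, edgeR adjusted p = 0.000204).

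**Figure D4:**
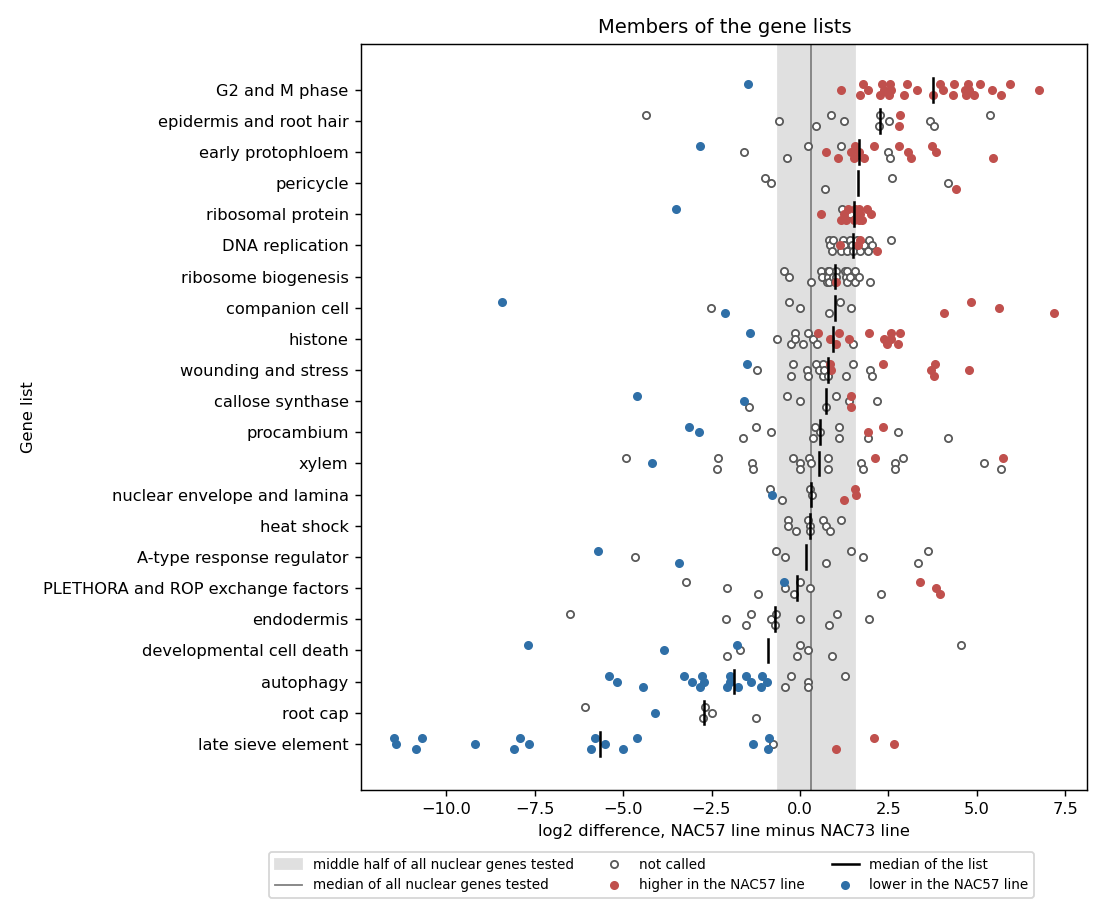
Log2 difference, NAC57 line minus NAC73 line (x axis), of every tested member of each gene list (y axis), ordered by the list's median, which is the black bar. Red points were higher and blue points lower in the NAC57 line, open points were not called, and the grey band runs between the quartiles of all nuclear genes tested, from -0.62 to 1.57. The G2 and M phase list lies furthest right, at a median of 3.77, and the late sieve element list furthest left, at -5.65.

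Most ribosomal protein genes rose by a modest amount. Of 17 listed, 14 rose and 1 fell, with a median of 1.52, and among all 351 genes that the RefSeq product names call ribosomal proteins, 236 rose and 10 fell, with a median of 1.54, where 21.4% of all nuclear genes rose and 16.0% fell. That wider family was set up after the values were seen. The summed level of the 17 was 14079 to 15503 CPM in NAC57, against 9248 and 8188 CPM in NAC73 1 and 4 and 2837 and 3090 CPM in NAC73 2 and 3. Without NAC73 2 and 3, 12 rose and the median was 0.85, and with only the 7 libraries in the fit 3 rose and the median was 1.42. A promoter element called site II, TGGGCC or TGGGCT, stands before many growth genes of plants. On either strand it occurs in the 300 bases before 11 of the 17 genes (64.7%), 15 of the 22 replication genes (68.2%) and 16 of 24 ribosome biogenesis genes (66.7%), against 22.3% of 23234 genes. The telo-box, AAACCCTA, occurs before 1 of the 17 (5.88%), against 4.91%. Many windows of the 17 genes overlap annotated exons, that of RPS13B over all 300 bases. Every listed gene without site II has such an overlap, so these are shares of windows and not of promoter sequence alone.

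A pair of ribosomal protein promoters with no annotated exon in the window is shown, chosen after the values were seen, with site II letters of either strand in capitals. They are chr3:2953393-2953692 on the plus strand for RPL4A and chr3:22461780-22462079 on the minus strand for RPS13A.
RPL4A: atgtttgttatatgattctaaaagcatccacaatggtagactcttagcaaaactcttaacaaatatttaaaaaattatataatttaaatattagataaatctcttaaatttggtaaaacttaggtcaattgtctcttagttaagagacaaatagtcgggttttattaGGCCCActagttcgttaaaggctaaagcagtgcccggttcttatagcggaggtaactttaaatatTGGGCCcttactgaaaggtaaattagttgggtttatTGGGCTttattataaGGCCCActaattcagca
RPS13A: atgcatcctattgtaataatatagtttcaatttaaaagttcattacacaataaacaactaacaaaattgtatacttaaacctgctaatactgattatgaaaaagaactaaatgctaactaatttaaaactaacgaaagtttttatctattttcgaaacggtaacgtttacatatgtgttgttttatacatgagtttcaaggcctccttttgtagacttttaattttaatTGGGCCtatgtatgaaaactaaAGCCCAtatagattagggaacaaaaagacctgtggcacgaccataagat

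RPL4A, with 4 copies of site II, had 498, 499.9 and 491 CPM in NAC57 and 312, 129, 100.3 and 300.3 CPM in NAC73 (1.24 ± 0.31). RPS13A, with 2 copies, had 1001, 959 and 871 CPM in NAC57 and 585, 308, 343 and 464 CPM in NAC73 (1.15 ± 0.24, edgeR adjusted p = 0.000723). RPL10B was the member that fell, with 7.69, 10.6 and 7.23 CPM in NAC57 and 56.4, 108, 124 and 98.6 CPM in NAC73 (-3.50 ± 0.30, edgeR adjusted p = 4.63e-08), while RPL10A, its near-identical paralog, rose (0.60 ± 0.19). The call of RPL10A was lost without NAC57 1 or without NAC73 2.

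Genes that assemble ribosomes were mostly not called. Of 24 tested, 1 rose and 0 fell, fewer than the 21.4% higher and 16.0% lower of all nuclear genes, and that 1 was the only gene with an unadjusted p below 0.05 (edgeR). Their median log2 difference was 1.00. In 9 of the 24 every NAC57 library lay above every NAC73 library, beside 24.8% of all nuclear genes tested. In 1 every NAC57 library lay below, beside 14.6%. The NAC73 libraries themselves spanned a wide range: the summed level was 2873 to 3053 CPM in NAC57, 2720 and 2864 CPM in NAC73 1 and 4, and 286.3 and 310.8 CPM in NAC73 2 and 3. Without NAC73 2 and 3 the median was 0.02, and without NAC73 1 and 4 it was 6.32 and 21 genes rose. The count was also 21 with limma voom, whose sample weights were lower for NAC73 1 and 4 than for NAC73 2 and 3. That count is therefore no separate support. NUC1, a nucleolin, had 348, 367 and 313 CPM in NAC57 and 307, 3.42, 0.986 and 368 CPM in NAC73. FIB2, a fibrillarin, had 135, 145 and 123 CPM in NAC57 and 153, 0.583, 0.678 and 155 CPM in NAC73. For both genes NAC73 1 and 4 lay near the NAC57 libraries and NAC73 2 and 3 far below them. MTR4, an RNA helicase of rRNA processing, was the gene called, with 159, 133 and 136 CPM in NAC57 and 82.7, 45.5, 44.8 and 105 CPM in NAC73 (1.03 ± 0.26, edgeR adjusted p = 0.00345).

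**Figure D5:**
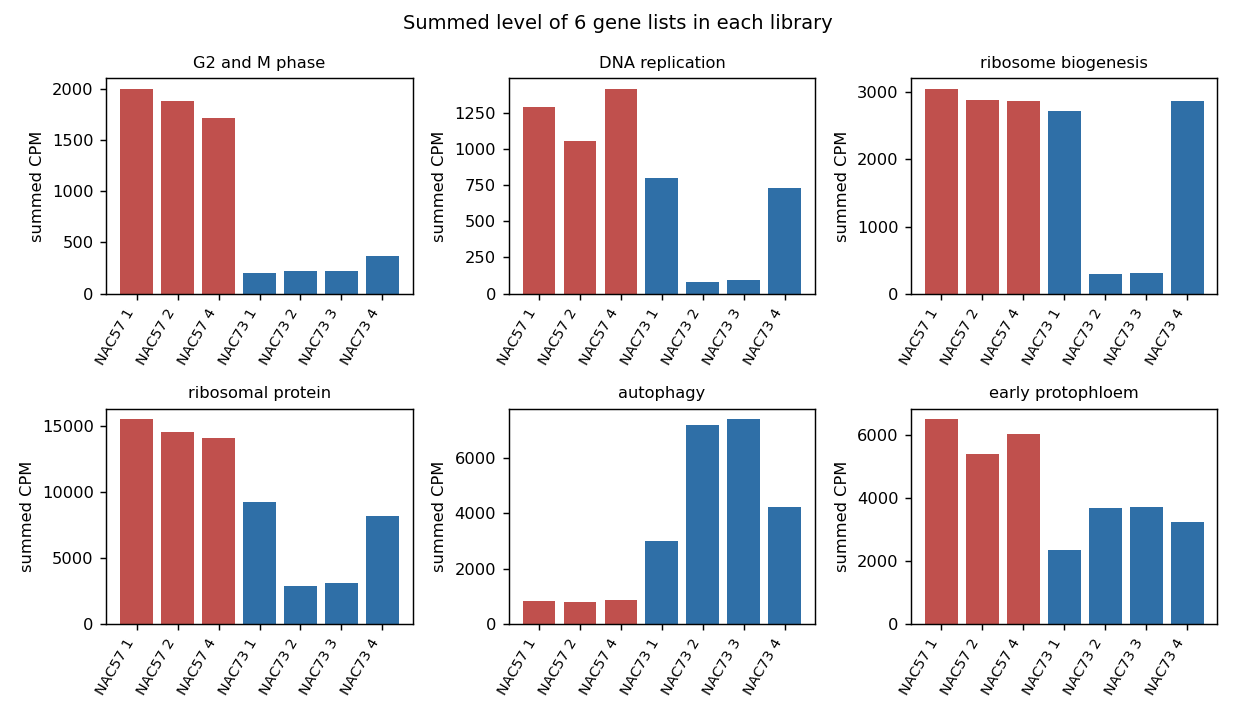
Summed level of 6 gene lists in each library (y axis, CPM, from 0), with red bars for the 3 NAC57 libraries and blue bars for the 4 NAC73 libraries. For the lists of DNA replication, ribosome biogenesis and ribosomal proteins NAC73 2 and 3 lie far below NAC73 1 and 4, while for G2 and M phase all NAC73 libraries are at or below 370.3 CPM.

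Genes of autophagy, the route by which cells enclose and digest their own cytoplasm, were lower in the NAC57 line. Of 22 tested, 0 rose and 17 fell, where 21.4% of all nuclear genes rose and 16.0% fell, with a median log2 difference of -1.86. Their summed level was 807.3 to 859.2 CPM in NAC57 and 3016 to 7428 CPM in NAC73. The ATG8 genes, which coat the forming membrane, held the largest falls and also some of the genes not called. ATG8A had 41.7, 36 and 34.5 CPM in NAC57 and 657, 1745, 2114 and 862 CPM in NAC73 (-5.17 ± 0.52, edgeR adjusted p = 3.06e-07). ATG8H had 64.1, 52.6 and 43.8 CPM in NAC57 and 568, 1648, 1786 and 617 CPM in NAC73 (-4.43 ± 0.40). ATG8C had 24.5, 22.9 and 26.5 CPM in NAC57 and 19.1, 42.4, 42.3 and 29.2 CPM in NAC73 and was not called, nor was ATG8G. ATG18A, which binds lipids of the forming membrane, had 38.5, 37.5 and 35 CPM in NAC57 and 214, 392, 328 and 302 CPM in NAC73 (-3.06 ± 0.18, edgeR adjusted p = 9.30e-10). ATG9, a membrane protein of the pathway, had 38.5, 31.3 and 28.9 CPM in NAC57 and 163, 442, 311 and 368 CPM in NAC73 (-3.29 ± 0.28). ATG7, which activates ATG8 proteins, had 29.1, 24.1 and 20.5 CPM in NAC57 and 22.9, 22.5, 20.8 and 18.1 CPM in NAC73 and was not called (0.22 ± 0.17).

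Of 10 genes of developmental cell death tested, 0 rose and 3 fell, with a median of -0.89, beside 21.4% higher and 16.0% lower among all nuclear genes. So few genes say little about the list. PASPA3, an aspartic protease known from dying root cells, had 3.05, 2.43 and 0.501 CPM in NAC57 and 306, 393, 444 and 505 CPM in NAC73 (-7.70 ± 1.28, edgeR adjusted p = 0.000109). RNS2, a ribonuclease of the vacuole, had 142, 130.5 and 113 CPM in NAC57 and 321, 530.0, 594 and 317 CPM in NAC73 (-1.78 ± 0.21). RNS3, another ribonuclease, had 3.85, 2.29 and 1.64 CPM in NAC57 and 9.09, 54.3, 44.9 and 41 CPM in NAC73 (-3.85 ± 1.31). The call of RNS3 was lost without any 1 of the NAC57 libraries (edgeR adjusted p = 0.0575 to 0.0958). Without NAC73 4 alone, 4 genes of the list rose.

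Of 8 genes of the nuclear envelope and lamina, 3 rose and 1 fell, beside 21.4% and 16.0% of all nuclear genes. CRWN3, a lamina-like coiled-coil protein, had 142, 103 and 132 CPM in NAC57 and 27.9, 45.9, 36.9 and 56.9 CPM in NAC73 (1.58 ± 0.21). CRWN2 and KAKU4, of the same structure, rose by 1.23 ± 0.27 and 1.56 ± 0.32 on the log2 scale. CRWN1 fell, with 256, 211 and 249 CPM in NAC57 and 276, 498, 410.5 and 482 CPM in NAC73 (-0.80 ± 0.16). Under median-of-ratios scaling the list had 3 higher and 3 lower.

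Callose is the glucan laid down at plasmodesmata and sieve plates, and its synthases were mixed. Of 11 tested, 2 rose and 2 fell, shares near the 21.4% and 16.0% of all nuclear genes. The number that rose was 4 without NAC73 4, 1 without NAC57 1 or without NAC57 4, and 0 with only the 7 libraries in the fit. CALS7, described above, fell (-4.59 ± 0.57). CALS9 had 106, 60.5 and 68.8 CPM in NAC57 and 100.2, 339, 180.5 and 324 CPM in NAC73 (-1.59 ± 0.32). CALS3, known for callose at plasmodesmata of the root vasculature, had 122, 60.6 and 88.7 CPM in NAC57 and 22.7, 26.2, 16.3 and 68.8 CPM in NAC73 (1.43 ± 0.35, edgeR adjusted p = 0.00335). The lines overlapped in 1 library pair or more for both CALS9 and CALS3. CALS12 also rose, and its call was lost without NAC57 1, NAC57 4 or NAC73 1 (edgeR adjusted p = 0.0909, 0.0602 and 0.0738).

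PLETHORA factors keep root cells in a dividing state, and ROP exchange factors switch on small GTPases of cell polarity. Of 12 such genes tested, 3 rose and 1 fell, near or under the 21.4% and 16.0% of all nuclear genes. ROPGEF2 had 32.9, 30.1 and 30.5 CPM in NAC57 and 2.82, 1.46, 2.47 and 5.08 CPM in NAC73 (3.40 ± 0.33, edgeR adjusted p = 2.08e-07). ROPGEF5 had 44, 35.3 and 52.5 CPM in NAC57 and 6.52, 0, 0 and 5.48 CPM in NAC73 (3.86 ± 0.93). ROPGEF3 had 69.7, 54.5 and 67 CPM in NAC57 and 4.78, 0, 0 and 11.4 CPM in NAC73, and its call was lost without any library but NAC73 4 (edgeR adjusted p = 0.0507 to 0.0594). ROPGEF1, the gene that fell, had 269, 259 and 288 CPM in NAC57 and 259.6, 433, 412 and 389 CPM in NAC73, and was not called without NAC57 1, NAC57 2, NAC73 2 or NAC73 3 (edgeR adjusted p = 0.0722, 0.0882, 0.0813 and 0.0677). PLT1 to PLT3, PLT5 and BBM were not called, and PLT7 had 0 counts in both lines, so it gives no comparison. PLT3 had 61.6, 52.4 and 58.3 CPM in NAC57 and 72.8, 20.6, 17.57 and 78.6 CPM in NAC73.

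A-type response regulators, which are induced by cytokinin and damp its signal, gave 0 higher and 2 lower of 10, beside 21.4% and 16.0% of all nuclear genes. Under median-of-ratios scaling 4 were lower, and without NAC73 1 and 4 the count was 3 higher and 5 lower. ARR4 had 59.9, 57.6 and 48.8 CPM in NAC57 and 436, 771, 764 and 422 CPM in NAC73 (-3.43 ± 0.28, edgeR adjusted p = 2.58e-08). ARR17, at low levels, had 0, 0.203 and 0 CPM in NAC57 and 2.93, 5.24, 3.64 and 3.41 CPM in NAC73. The median of the list was 0.17, and -0.31 with the 2 genes that have no count in 1 line set at their bound. Among 15 procambium genes 2 rose and 2 fell, shares under the 21.4% and 16.0% of all nuclear genes. PHB, an HD-ZIP factor that sets vascular pattern, had 60.1, 45.8 and 41.2 CPM in NAC57 and 249.8, 430.0, 384 and 341 CPM in NAC73 (-2.84 ± 0.22). PXY, the receptor of a peptide that keeps procambium dividing, had 12.7, 11.1 and 11.7 CPM in NAC57 and 60.1, 137, 122 and 94.4 CPM in NAC73 (-3.13 ± 0.28). WOX14 rose, and its call was lost without 5 of the 7 libraries, all but NAC73 2 and NAC73 3 (edgeR adjusted p = 0.0554 to 0.0794). Without NAC73 4 alone, 6 procambium genes rose.

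Markers of other cell types moved in both directions, and their part in the results above was not tested. Of 12 companion cell markers 4 rose and 2 fell, beside 21.4% and 16.0% of all nuclear genes, and with only the 7 libraries in the fit 0 rose and 3 fell. The markers had summed levels of 421.8 to 579.1 CPM in NAC57 and 1200 to 2207 CPM in NAC73. AHA3, a proton pump of companion cells, makes up most of that sum, with 418, 326 and 425 CPM in NAC57 and 1179, 2202, 1980 and 1427 CPM in NAC73 (-2.12 ± 0.40). SUC2, the defining sucrose carrier of companion cells, had 30.0, 6.88 and 3.87 CPM in NAC57 and 1.95, 0.583, 0.616 and 0 CPM in NAC73 (4.07 ± 0.98). The list also holds SWEET11 and SWEET12, sugar exporters of phloem parenchyma, and both are among the 4 that rose. SWEET12 had 4.57, 15.9 and 56 CPM in NAC57 and 0, 0, 0 and 2.07 CPM in NAC73 (5.64 ± 1.51). SWEET11 had 7.52, 43.9 and 76.9 CPM in NAC57 and 2.1, 0, 0 and 3.81 CPM in NAC73, and was not called without NAC57 4. PHO1, a phosphate exporter of the pericycle and the 1 gene called of 6 pericycle markers, had 30.6, 148 and 125 CPM in NAC57 and 1.8, 1.38, 0 and 16.1 CPM in NAC73 (4.403 ± 1.12). UMAMIT20, an amino acid transporter-like gene, had 14.2, 77.1 and 89.9 CPM in NAC57 and 1.03, 0, 0.555 and 3.21 CPM in NAC73 (5.65 ± 1.45). SWEET12, PHO1, UMAMIT20 and UMAMIT30 were lowest in NAC57 1 among the NAC57 libraries, and SUC2 was highest there. SULTR2;1, a sulfate transporter, had 59 counts in NAC57 and 0 in NAC73, at least 12.7-fold higher against a floor of 3 counts over the line. PP2-A2, a phloem lectin gene, had 0 counts in NAC57 and 85 in NAC73, at least 43.7-fold lower.

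Root cap markers stood out in a single NAC73 library. Summed over 6 markers the level was 19.3 to 27.1 CPM in NAC57 and 2.16 to 551 CPM in NAC73, with the highest value in NAC73 1. CEL5, a cellulase gene of the root cap, had 18.3, 18.3 and 23.3 CPM in NAC57 and 470.5, 8.23, 1.48 and 49.4 CPM in NAC73 and was not called. SMB, a regulator of root cap maturation, was the 1 marker called of the 6, lower in NAC57 (-4.11 ± 1.29), and not called without NAC57 1 or NAC57 4 (edgeR adjusted p = 0.0513 and 0.071). Of 11 endodermis markers 0 were called, and 1 had an unadjusted p below 0.05 in the edgeR test, against 1 called under median-of-ratios scaling. Of 13 markers of epidermis and root hair 2 rose, CPC and RHD2, a share under the 21.4% of all nuclear genes. CPC had 14.7, 13 and 17.2 CPM in NAC57 and 2.62, 0.218, 2.4 and 3.34 CPM in NAC73 (2.79 ± 0.52). RHD2 was under 0.34 CPM in every library, and its call was lost without NAC57 1, NAC57 4, NAC73 1 or NAC73 3 (edgeR adjusted p = 0.0784, 0.108, 0.105 and 0.11). The 22 xylem markers gave 2 higher and 1 lower, shares under the 21.4% and 16.0% of all nuclear genes. Each call was lost without 1 library. The markers summed to 13.6 to 19 CPM in NAC57 and 4.67 to 25 CPM in NAC73.

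Stress genes were also compared, since protoplasts are wounded cells. Of 10 heat shock genes 0 were called, and 0 had an unadjusted p below 0.05 in the edgeR test, while limma voom with sample weights called 1. Their summed level was 299.3 to 1014 CPM in NAC57 and 95.2 to 1170 CPM in NAC73, and without NAC73 1 alone 4 of them rose. Of 23 wounding and stress genes 7 rose and 1 fell, with a median of 0.79, beside 21.4% and 16.0% of all nuclear genes. OPR3, an enzyme of jasmonate synthesis, had 226, 204 and 173 CPM in NAC57 and 99.4, 120.1, 131 and 96.8 CPM in NAC73 (0.85 ± 0.14). AOS, which acts earlier in the same pathway, had 14.1, 15.7 and 16.2 CPM in NAC57 and 52.2, 50.1, 43 and 28.2 CPM in NAC73 (-1.50 ± 0.26). Without NAC73 1 alone, 12 of the 23 rose. The part of stress in the results above was not tested.

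The genes with the largest differences, limited to those averaging 20 CPM or more where they were higher and called without any 1 library, joined these groups to genes outside them. Among the 12 largest that rose were 3 B-type cyclins, CYCB1;2, CYCB1;4 and CYCB2;2, CDC20.2 and HCA2. SDG35 (AT1G26760), a SET domain protein, had 22.9, 21.8 and 24.9 CPM in NAC57 and 0.257, 0.0728, 0 and 0 CPM in NAC73 (7.94 ± 1.07, edgeR adjusted p = 1.14e-05). PDLP6, a protein of plasmodesmata, had 6.45, 26.3 and 29.3 CPM in NAC57 and 0, 1.38, 0.493 and 0 CPM in NAC73 (5.51 ± 1.12). TRM7, of a family that binds microtubule-organising proteins, had 55.4, 39 and 49.7 CPM in NAC57 and 0, 0, 0 and 4.01 CPM in NAC73 (5.604 ± 1.06). EDA21, named for arrest of the embryo sac, had 22.1, 23.5 and 20.8 CPM in NAC57 and 0.411, 0.0728, 0 and 1.27 CPM in NAC73 (5.64 ± 0.87).

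Several of the 12 largest falls were of genes with few or no counts in the line labelled NAC57. WAVE2 (AT1G29170), which encodes an activator of actin branching of the SCAR family, had 1 count in the 3 NAC57 libraries together and 18518 in the 4 NAC73 libraries. The ratio was 28585-fold lower, with a 95% exact binomial interval of 5130 to 1129099 that covers counting error only. SHP2, a MADS-box gene, had 0 counts in NAC57 and 2402 in NAC73, at least 1236-fold lower against the same floor. SRO3 and SOM likewise had 0 counts in NAC57 and were at least 762-fold and at least 740.9-fold lower. HVA22F (AT2G42820), whose gene lies 1568 bases from SHP2 on the opposite strand, had 8.42, 0.926 and 0.64 CPM in NAC57 and 5646, 16760, 19687 and 5970 CPM in NAC73 (-11.83 ± 2.00).

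RTM3, which acts with RTM1 and RTM2 in restricting a virus, had 2.18, 0.318 and 0.612 CPM in NAC57 and 1779, 4749, 6073 and 3345 CPM in NAC73 (-11.92 ± 1.63). XTH10, a wall-modifying enzyme of xyloglucan, had 3.64, 0.868 and 0 CPM in NAC57 and 2830, 6161, 6898 and 3077 CPM in NAC73 (-11.64 ± 2.02). DSEL, a lipase, had 0.139, 0.145 and 0.0834 CPM in NAC57 and 298, 613, 614 and 435 CPM in NAC73 (-11.93 ± 1.32, edgeR adjusted p = 1.25e-06). AGC1.7, a protein kinase, averaged 0.0394 ± 0.0419 CPM in NAC57 and 146 ± 61.4 CPM in NAC73 (SD, n = 3 and 4). HT1, another kinase, averaged 0.104 ± 0.18 CPM in NAC57 and 324 ± 158 CPM in NAC73. The mean of the CALS7 line lay between those of the lines here too, at 792 ± 241 CPM for RTM3, 894 ± 175 CPM for XTH10 and 1504 ± 411 CPM for HVA22F (SD, n = 4). The difference between the NAC73 and CALS7 lines was not called for these genes (edgeR adjusted p = 0.0606, 0.116 and 0.0574).

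The nuclear genes with the highest mean CPM, a scale that is not per length, differed between the lines. In NAC57 the highest mean levels were those of AT5G60390, a translation elongation factor 1-alpha gene, ATMS1 and HOG1, enzymes of the methionine cycle, AAC1, a mitochondrial ADP/ATP carrier, and LOS1, an elongation factor 2. AAC1 had 2571, 3015 and 2636 CPM in NAC57 and 2540, 2704, 2499 and 2431 CPM in NAC73 and was not called (0.11 ± 0.17). HOG1 had 2954, 4205 and 4240 CPM in NAC57 and 1906, 1076, 1022 and 2305 CPM in NAC73 (1.27 ± 0.26). In NAC73 the highest were NS2, SUS6, AT2G46630, AT1G63310 and HVA22F. NS2, an asparaginyl-tRNA synthetase, had 18.19, 3.82 and 5.65 CPM in NAC57 and 6875, 22807, 21199 and 13329 CPM in NAC73 (-10.77 ± 1.32, edgeR adjusted p = 3.91e-06). Of the 57 tRNA synthetase genes by RefSeq product name 23 rose and 8 fell, beside 21.4% higher and 16.0% lower among all nuclear genes. AT1G63310, of unknown function, had 242, 174 and 160.5 CPM in NAC57 and 7930, 15911, 19519 and 7633 CPM in NAC73 (-6.05 ± 0.59).

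Families taken from RefSeq product names, after the values were seen, place single genes in context, and their counts stand beside 21.4% higher and 16.0% lower among all nuclear genes. Of 98 NAC domain genes tested, 13 rose and 24 fell, with a median of 0.00. Of 29 Dof zinc finger genes, 9 rose and 2 fell, with a median of 1.29. Among 44 kinesins 22 rose and 7 fell, with a median of 1.64. The 45 nodulin MtN21-type transporters, the family of the UMAMIT genes, gave 16 higher and 5 lower, with a median of 1.08.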

How the data were processed

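RNA was measured in 21 libraries of sorted Arabidopsis root protoplasts (5-day seedlings, low-input amplification, single-end reads). Raw read counts per gene were deposited by the authors. Per the submitters' processing notes the tools named were Bowtie2, featureCounts and edgeR and the build TAIR10, with no versions, and strand use is not given in the sources used here. Totals were 23513921 to 36198012 counts per library. Floors and intervals cover counting error only, and amplified reads are not independent molecules.

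From these counts edgeR 4.0.16 (R 4.3.3, limma 3.58.1) fitted 1 coefficient per line over all 21 libraries with trimmed-mean scaling, its expression filter and a robust quasi-likelihood test. Two-sided p-values were adjusted by Benjamini-Hochberg over 26074 genes, and calls at 0.05 were counted over 25924 nuclear genes. The SE is the log2 difference divided by the square root of F. In counts simulated for this comparison over 24668 genes, 8.96% of 2-fold, 47.8% of 4-fold and 72.7% of 8-fold changes were called. False calls were 2.27% of the calls there, and 2-fold changes are often missed. The simulation gave every unchanged gene the same mean in all lines and the same spread in all libraries. The split among the NAC73 libraries was not simulated, so the 2.27% does not carry over to these data. Alternatives were median-of-ratios scaling, no filter, DESeq2 1.42.0, limma voom, a replicate block, only these 2 lines, nuclear genes only, each library left out, and NAC73 2 and 3 or 1 and 4 left out.

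Named genes were the 12 largest log2 differences in each direction among nuclear genes with a symbol that were called in every leave-one-out fit, without overlap and averaging 20 CPM or more where higher; the reporter genes; all early protophloem and late sieve element genes; up to 4 genes of lowest adjusted p from each other list; and the 5 highest mean CPM in each line. Others, such as KN, POK1, MCM3, HTR2, HTR5, RPL4A, RPL10A, NUC1, FIB2, ATG7, ATG8A, ATG8C, ATG8G, SWEET11 and the PLT genes, were chosen after their values were seen. The members and lists were chosen with earlier results of these data known. Same-numbered libraries of the lines had deviations correlated at -0.139 (1), -0.093 (2) and 0.011 (4).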

Additional observations from a re-analysis of the deposited data

Results flagged for a closer look

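CEL5, a root cap cellulase gene, was at 470.5 CPM in NAC73 1, against 1.48 to 49.4 CPM in the other 3 NAC73 libraries, which put that library far from the rest of its group. It was 1 of 87 named genes looked at in the 4 NAC73 libraries, and chance alone sets apart about 1 in 20 groups.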

How the results depend on the processing

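Of the counts, those that moved most came from which libraries shared the fit. With only the 7 libraries of these 2 lines, 5103 genes were called and 1822 of them were higher, against 9693 and 5547; fewer genes (17893) were tested there. Without NAC73 1 and 4, 8660 genes were higher. Early protophloem genes that fell numbered 2 instead of 1 with median-of-ratios scaling, with DESeq2 and without NAC73 1 and 4; the cause was not tested. Leaving out 1 library at a time gave 8107 to 10759 calls, 4510 to 6555 higher and 3597 to 4455 lower, with early protophloem genes at 14 to 17 higher and 1 lower and late sieve element genes at 3 higher and 16 lower. Under the replicate block 8854 genes were called, 4997 higher and 3857 lower. Deviations of same-numbered libraries correlated at -0.139, -0.093 and 0.011, and those of differently numbered ones at -0.064 to 0.120. With so few libraries, most of whose NAC73 spread is the split of 1 and 4 from 2 and 3, this cannot settle whether the numbers pair the libraries. limma voom, which gave NAC73 1 and 4 less weight than NAC73 2 and 3, called 8189 higher and 4533 lower. Of 119 named genes called, none turned its direction under any of these alternatives, 12 lost the call without 1 library, and 24 lost it with only the 2 lines. At these totals genes under about 1 CPM carry few counts.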

Other observations

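WAVE2 (chr1:10190137-10195213 in TAIR10.1) was at 1 count over the 3 NAC57 libraries and at 11.1 to 350.6 CPM, median 31.5 CPM, in the other 18 libraries of the series. In a search made after its values were seen, it was the 1 nuclear gene with at most 3 counts over the NAC57 line and at least 5 CPM in every other library, and the same search gave 0 genes for each of the other 5 lines.

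HTB2, an H2B histone gene, averaged 298.9 ± 16.3 CPM in the NAC57 line and 471 ± 71.9 CPM in the NAC73 line, beside 8907 ± 3097 CPM in the CALS7 line (SD, n = 3, 4 and 4). All 3 labels name an H2B fusion, and whether reads of a transgene were counted to this gene was not tested.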
